A study of Mus musculus with 48 samples.

Results

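The transforming growth factor beta (TGF-beta) ligands and receptors are described here as 10 genes, Tgfb1, Tgfb2, Tgfb3, Tgfbr1, Tgfbr2, Tgfbr3, Eng, Acvrl1, Bmpr2 and Nrros, out of 54752 genes in the expression matrix. They were chosen by name, as rows whose Ensembl identifier carries the mouse symbol, and all 10 were found and passed the filter on low values in every comparison. RNA was sequenced from 48 samples of Prox1-eGFP mice on a C57BL/6 background, in which green fluorescent protein is expressed from the Prox1 locus and so marks Prox1-expressing lymphatic cells. The 4 populations were cardiac lymphatic endothelial cells (LECs), diaphragm LECs, cardiac blood endothelial cells (BECs), and cardiomyocytes. Cardiac cells are labelled heart in the plots. Each population had 4 libraries from mice given bovine serum albumin by minipump (ctrl). It had 5 from mice given albumin with angiotensin II, a pressor peptide used to bring on cardiac dysfunction (angII). The other 3 were from mice given angiotensin II with VEGFCc156s, a mutant lymphatic growth factor selective for its receptor VEGFR3 (angII+VEGFC). In the study's design, albumin in the ctrl and angII pumps balanced the VEGFCc156s protein. The mice of all 3 groups carried the reporter and were male, tissue was taken 5 to 6 weeks after the pump was implanted, and the labels give ages of 8 to 16 months in the ctrl and angII groups and 8 to 15 months in the angII+VEGFC group. The study's methods give ages in weeks instead, so the unit of age is uncertain. Endothelial cells were sorted as living CD45.2-negative, CD31-positive cells, with eGFP separating LECs from BECs, whereas cardiomyocytes were pelleted from digested heart tissue and were not sorted.

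TGF-beta ligands are secreted in a latent complex, become active when the latency peptide is removed, and then bind the type II receptor Tgfbr2, which recruits and phosphorylates a type I receptor. With the type I receptor Tgfbr1 (ALK5) the signal runs mainly to SMAD2 and SMAD3, and with Acvrl1 (ALK1), the endothelial type I receptor for BMP9 and BMP10 that pairs with Bmpr2, it runs to SMAD1 and SMAD5. Eng (endoglin) and Tgfbr3 (betaglycan) are coreceptors that present ligand, and Nrros tethers latent TGF-beta to the cell surface and is best known from macrophages and microglia. In blood vessels, loss of ENG or ACVRL1 function causes hereditary hemorrhagic telangiectasia.

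Expression is given in TPM, an abundance scaled for transcript length and library total, so that levels can be compared between genes. The files hold no read counts and library depth is unknown. In its place stands how many genes reached 1 TPM, which ranged from 12924 to 25896 over the 48 libraries. The sum of 5 lymphatic marker genes (Prox1, Lyve1, Flt4, Pdpn and Reln) was 1650.1 to 2674 TPM in cardiac LECs and 4314 to 6825 TPM in diaphragm LECs, against 81.5 to 133 TPM in cardiac BECs. Cardiomyocyte libraries led in 5 cardiomyocyte genes (6679 to 18481 TPM in sum, at most 719.9 TPM elsewhere). They also held the most of 7 fibroblast genes, with a median sum of 3294 TPM, and of 8 macrophage genes, with a median sum of 524 TPM. The labels of the 4 populations therefore matched their markers, with cardiomyocytes as a mixed fraction. The library that stood apart among diaphragm LECs was angII mouse 4, by its levels of Tgfb2, Tgfbr1 and Nrros. Its 23691 genes reaching 1 TPM were close to the 23440 of angII mouse 3. It was thus picked from values of the genes tested, and results without it are descriptions. Among cardiomyocytes angII+VEGFC mouse 8 stood apart, with 19306 genes reaching 1 TPM against 13020 to 15816 in the other 11. Results that change without either library are given both ways.

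All 10 genes are protein coding. On the mouse genome GRCm38 the ligand genes lie at chr7:25687002-25705077 (Tgfb1, plus strand, ENSMUSG00000002603), chr1:186622792-186705989 (Tgfb2, minus strand, ENSMUSG00000039239) and chr12:86056745-86079041 (Tgfb3, minus strand, ENSMUSG00000021253). The type II receptor genes lie at chr9:116084293-116175360 (Tgfbr2, minus strand, ENSMUSG00000032440) and chr1:59763400-59879014 (Bmpr2, plus strand, ENSMUSG00000067336), and the type I receptor genes at chr4:47353222-47414931 (Tgfbr1, plus strand, ENSMUSG00000007613) and chr15:101128522-101145336 (Acvrl1, plus strand, ENSMUSG00000000530). The coreceptor genes lie at chr2:32646595-32682669 (Eng, plus strand, ENSMUSG00000026814) and chr5:107106570-107289629 (Tgfbr3, minus strand, ENSMUSG00000029287), and Nrros lies at chr16:32142785-32165594 (minus strand, ENSMUSG00000052384). An exon of Eng overlaps an exon of Fpgs on the opposite strand (mean 17.7 TPM over the 48 libraries), and reads from the overlap cannot be told apart without strand. The other genes that overlap exons of these genes averaged at most 1.33 TPM.

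Promoter sequences are shown for a ligand gene and a receptor gene that were higher in LECs than in BECs (Tgfb2 and Tgfbr2), and for Eng and Nrros, which were highest in BECs. RefSeq promoters (build GRCm38.p6) were matched by symbol for 7 of the 10 genes, without Tgfb3, Tgfbr3 and Acvrl1. The 250 bases before the start are printed 5′ to 3′ on the strand of the gene, for Tgfb2 from chr1:186705990-186706239 (minus strand), for Tgfbr2 from chr9:116175364-116175613 (minus strand), for Eng from chr2:32646345-32646594 (plus strand) and for Nrros from chr16:32165595-32165844 (minus strand). The RefSeq start of Tgfbr2 lies 3 bases upstream of the annotated start of the gene. Capitals mark the letters CAGAC or their reverse complement GTCTG, the SMAD box.
Tgfb2: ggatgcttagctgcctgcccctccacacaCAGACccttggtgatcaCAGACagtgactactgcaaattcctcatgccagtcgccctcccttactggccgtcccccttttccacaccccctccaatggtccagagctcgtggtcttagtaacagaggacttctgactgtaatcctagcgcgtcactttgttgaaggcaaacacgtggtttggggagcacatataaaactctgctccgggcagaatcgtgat
Tgfbr2: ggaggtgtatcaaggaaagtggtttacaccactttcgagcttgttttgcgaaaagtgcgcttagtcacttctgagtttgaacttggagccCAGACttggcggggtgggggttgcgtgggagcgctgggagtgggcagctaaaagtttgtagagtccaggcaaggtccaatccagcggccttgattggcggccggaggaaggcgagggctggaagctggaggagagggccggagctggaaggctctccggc
Eng: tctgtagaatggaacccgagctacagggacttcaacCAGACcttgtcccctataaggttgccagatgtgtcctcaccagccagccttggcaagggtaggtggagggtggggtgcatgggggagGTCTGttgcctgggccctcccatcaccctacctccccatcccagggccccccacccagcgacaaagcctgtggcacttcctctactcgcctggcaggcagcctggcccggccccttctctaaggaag
Nrros: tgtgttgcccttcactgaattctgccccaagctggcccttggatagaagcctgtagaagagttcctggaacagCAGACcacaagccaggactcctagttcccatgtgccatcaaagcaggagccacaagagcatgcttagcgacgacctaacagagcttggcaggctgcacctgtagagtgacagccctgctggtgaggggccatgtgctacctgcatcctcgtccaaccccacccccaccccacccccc

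The SMAD box occurred 2 times in the windows of Tgfb2 and Eng and 1 time in those of Tgfbr2 and Nrros. It was in 42.2% of 32851 RefSeq promoter windows of the same length, so its presence does not set these genes apart. The letters CCGGAA (reverse complement TTCCGG), an ETS-type motif held by 12.0% of the windows, and GGCGCC, which reads the same on both strands and was held by 9.59%, did not occur in these 4 windows. These matches are descriptions of letters and not binding sites.

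Averaged over the 12 libraries of a population, the levels of the 10 genes spanned from 2.17 ± 0.267 TPM (mean ± SD, n = 12, here and below for populations) for Bmpr2 in cardiomyocytes to 637 ± 103 TPM for Eng in cardiac BECs. Cardiac LECs and cardiac BECs both expressed Eng most, but Tgfbr2 stood next in cardiac LECs (379.8 ± 81.6 TPM) and Acvrl1 stood next in cardiac BECs (267 ± 34.7 TPM). In diaphragm LECs the order turned, with Tgfbr2 (561 ± 106 TPM) above Eng (227 ± 40.9 TPM). Bmpr2 and Tgfbr1 were among the 3 lowest genes in cardiac LECs, cardiac BECs and diaphragm LECs.

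**Figure D1:**
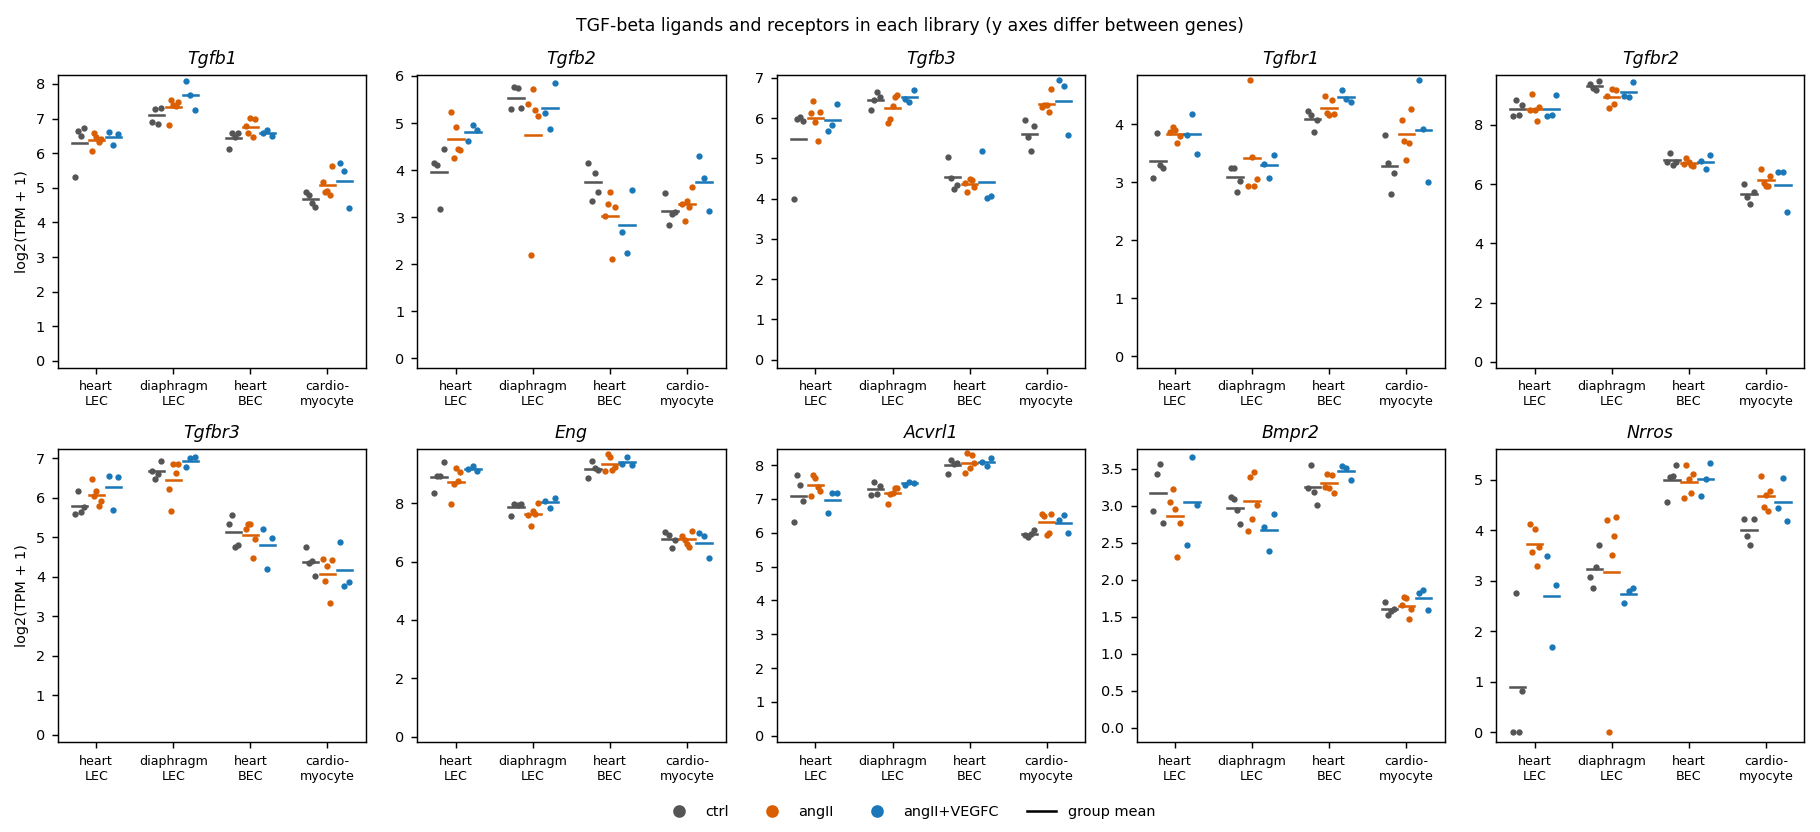
Level of each of the 10 genes in each library, as log2(TPM + 1) on the y axis, by cell population on the x axis; points are libraries, colors are the treatment groups and lines are group means. Tgfbr2 in all 24 LEC libraries lies above all cardiac BEC and cardiomyocyte libraries, and Nrros is lower in all LEC libraries than in all cardiac BEC libraries.

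The first comparison asked how the populations differed, with limma on log2(TPM + 1), the 3 treatment groups weighted equally, and adjusted p-values taken over all genes tested. Between cardiac LECs and cardiac BECs 8 of the 10 genes were called at an adjusted p-value of 0.05 (4 higher and 4 lower in LECs), where 17.6% of all 32754 genes were called, 8.94% higher and 8.64% lower. With ctrl libraries only, 4 were called (Acvrl1, Nrros, Tgfbr2 and Tgfbr3), against 9.82% of all genes. Between diaphragm LECs and cardiac LECs 5 were called (4 higher and 1 lower in diaphragm), against 4.56% of all genes, 1.88% higher and 2.67% lower, and 8 were called without diaphragm angII mouse 4, against 5.92% of all genes. All 10 were called between diaphragm LECs and cardiac BECs (5 higher and 5 lower), against 16.6% of all genes, 7.54% higher and 9.01% lower. The median difference of the 10 genes was -0.27 between cardiac LECs and cardiac BECs, 0.59 between diaphragm and cardiac LECs and 0.17 between diaphragm LECs and cardiac BECs, and that of all genes was 0.15, -0.10 and 0.029. Libraries are bulk RNA, in which fewer cells of a type and less RNA per cell cannot be told apart.

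**Figure D2:**
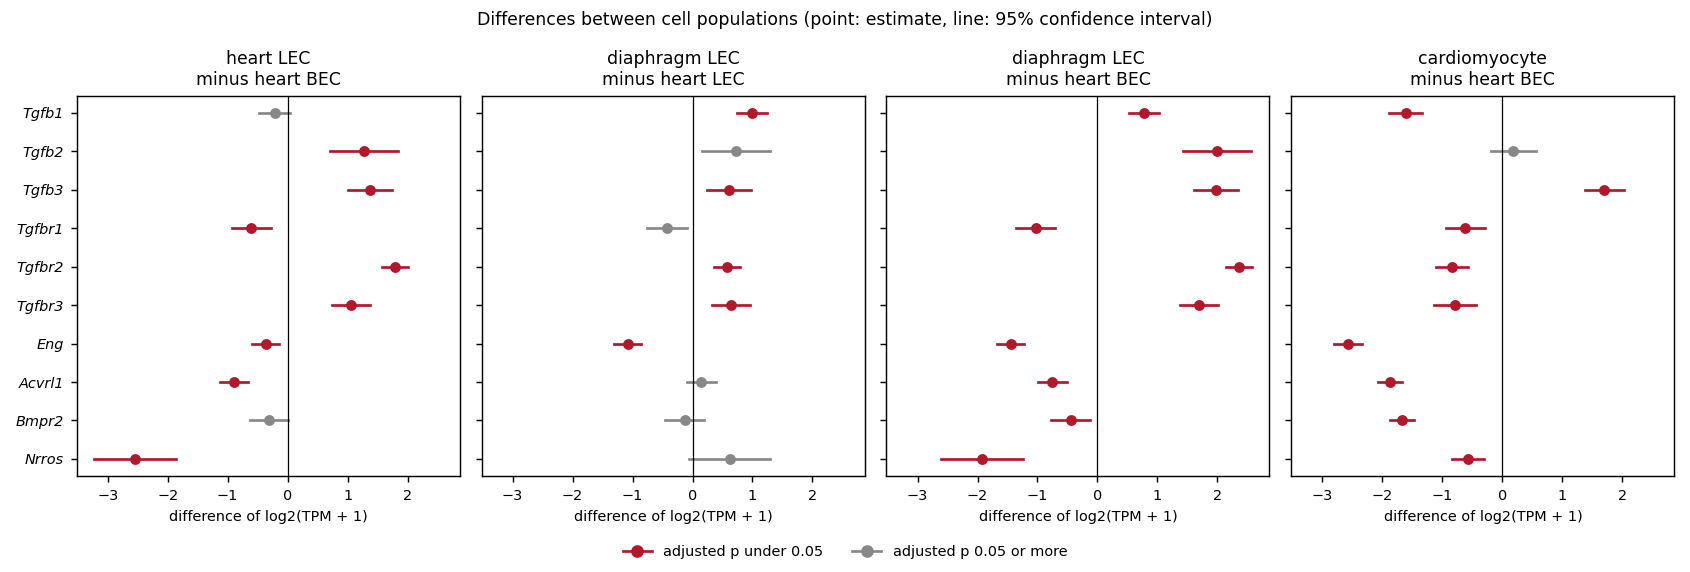
Difference of log2(TPM + 1) between populations on the x axis for each gene on the y axis; points are limma estimates, lines are 95% confidence intervals, and red marks an adjusted p-value under 0.05. Tgfbr2 lies at 1.79 and Nrros at -2.55 in cardiac LEC minus cardiac BEC, and Eng lies at -1.08 in diaphragm LEC minus cardiac LEC.

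Of the ligands, Tgfb2 and Tgfb3 were higher in cardiac LECs than in cardiac BECs, whereas Tgfb1, the most widely expressed ligand, was higher in diaphragm LECs than in either heart endothelium. The lowest, median and highest Tgfb1 level was 112, 161 and 271 TPM in diaphragm LECs, 38.6, 88.6 and 106 TPM in cardiac LECs and 68.3, 95.2 and 129 TPM in cardiac BECs. Every diaphragm LEC library exceeded every cardiac LEC library, and the LEC and BEC libraries of the heart overlapped. The difference between diaphragm and cardiac LECs was 1.0 ± 0.124 (SE, adjusted p = 7.61e-07), higher in 11 of 11 mice, and was 1.0 in batch 1 and 0.92 in batch 2. With ctrl libraries only the call was lost (0.79, adjusted p = 0.0889), as was that against cardiac BECs (0.65, adjusted p = 0.0621). Between cardiac LECs and cardiac BECs it was -0.22 (95% interval -0.47 to 0.033, adjusted p = 0.247), higher in 6 of 12 mice, so the order of these neighbors was not resolved.

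Tgfb2, a ligand that depends on betaglycan for high-affinity receptor binding, ran from 8.06 to 36.9 TPM in cardiac LECs (median 20.9), from 3.58 to 56.4 TPM in diaphragm LECs (median 38.5) and from 3.32 to 16.8 TPM in cardiac BECs (median 8.90). The ranges overlapped, and the lowest diaphragm value was that of angII mouse 4. Cardiac LECs exceeded cardiac BECs by 1.27 ± 0.279 (SE, adjusted p = 0.000875) and in 10 of 12 mice. With ctrl libraries only the difference was 0.23 (adjusted p = 0.748), and treatment values of this gene are given below. Between diaphragm and cardiac LECs the difference was 0.72 (adjusted p = 0.155), and it became 0.90 (adjusted p = 0.00674) with the mouse as a block, a fit that leaves out mice 4 and 12. Without diaphragm angII mouse 4 alone and with no block it was also called (adjusted p = 0.00111). Over the settings that leave out no single library the difference ran from 0.57 to 1.56 (adjusted p = 0.00674 to 0.475). Among ctrl libraries diaphragm LECs (38.2 to 53.5 TPM) lay wholly above cardiac LECs (8.06 to 20.8 TPM). In the angII and angII+VEGFC groups the 2 LEC populations overlapped.

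Tgfb3, a ligand known from development and wound repair, had lowest, median and highest levels of 14.8, 61.1 and 85.3 TPM in cardiac LECs, 57.9, 87.5 and 102 TPM in diaphragm LECs and 15.1, 19.6 and 35.5 TPM in cardiac BECs. Diaphragm LECs lay wholly above cardiac BECs, and cardiac LECs overlapped BECs through 1 low library, ctrl mouse 1. Cardiac LECs exceeded BECs by 1.38 ± 0.180 (SE, adjusted p = 2.8e-07) and in 11 of 12 mice, a call that was lost with ctrl libraries only. Diaphragm LECs exceeded cardiac LECs by 0.61 ± 0.180 (SE, adjusted p = 0.0466), a call close to the threshold that was lost under 6 of the other 7 settings and without any 1 of 16 of the 24 libraries (adjusted p up to 0.12). As shares of summed ligand TPM, Tgfb1 made up 51.0% ± 5.78 (mean ± SD, n = 12) in cardiac LECs, 56.8% ± 8.53 in diaphragm LECs and 76.1% ± 6.79 in cardiac BECs, and Tgfb3 made up 34.9% ± 6.24, 29.3% ± 4.08 and 16.7% ± 5.00.

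Tgfbr2, the receptor that binds all active TGF-beta, was the gene among the 10 with the largest difference of LECs above BECs. Its lowest, median and highest levels were 379, 581 and 712 TPM in diaphragm LECs, 278, 361 and 521 TPM in cardiac LECs, 89.2, 106 and 132 TPM in cardiac BECs and 32.3, 62.1 and 90.4 TPM in cardiomyocytes. No LEC library overlapped a BEC library, and the 2 LEC populations overlapped each other. Cardiac LECs exceeded BECs by 1.79 ± 0.106 (SE, adjusted p = 4.18e-15), 3.45-fold on the log2(TPM + 1) scale, in 12 of 12 mice and by 1.79 in batch 1 and 1.79 in batch 2. Diaphragm LECs exceeded cardiac LECs by a further 0.58 ± 0.106 (SE, adjusted p = 0.000448), in 11 of 11 mice. Each step in the order diaphragm LEC, cardiac LEC, cardiac BEC, cardiomyocyte passed the test. The ranges of cardiac LECs and BECs did not overlap, those of cardiomyocytes and BECs did, and the step from BECs to cardiomyocytes was lost with quantile normalization.

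Tgfbr1, its type I partner, ran the other way and at much lower levels. It had lowest, median and highest levels of 13.6, 17.5 and 23.1 TPM in cardiac BECs, 7.36, 12.9 and 17.0 TPM in cardiac LECs and 6.07, 7.93 and 26.0 TPM in diaphragm LECs, where the highest value belonged to angII mouse 4. The difference of cardiac LECs from BECs was -0.60 ± 0.160 (SE, adjusted p = 0.00589), lower in 12 of 12 mice, a call that was lost with ctrl libraries only. Between diaphragm and cardiac LECs the difference was -0.43 (adjusted p = 0.138) and -0.53 (adjusted p = 0.00535) without that library. The ratio of Tgfbr2 to Tgfbr1 within a library had a median of 70.6 in diaphragm LECs and 32.5 in cardiac LECs (18.8 to 50.9), against 6.18 in cardiac BECs (4.33 to 7.84). This ratio did not overlap between LECs and BECs of the heart.

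Acvrl1, which carries BMP9 and BMP10 signals in endothelium, was higher in cardiac BECs than in both LEC populations. The lowest, median and highest levels were 213, 269 and 325 TPM in cardiac BECs, 78.5, 147 and 210.2 TPM in cardiac LECs and 116, 159 and 180.5 TPM in diaphragm LECs, and BECs did not overlap either LEC population. The difference of cardiac LECs from BECs was -0.90 ± 0.118 (SE, adjusted p = 3.1e-07), lower in 12 of 12 mice, with -0.74 in batch 1 and -0.98 in batch 2. All 5 pan-endothelial genes were also lower in both LEC populations, with a median difference from BECs of -0.72 in cardiac LECs and -0.82 in diaphragm LECs. Relative to Pecam1, one of them, the median Acvrl1 ratio was 0.328 in cardiac BECs (0.302 to 0.385), 0.289 in cardiac LECs (0.226 to 0.444) and 0.328 in diaphragm LECs (0.289 to 0.487), and these ranges overlapped. Between diaphragm LECs and BECs the call of Acvrl1 was lost with ctrl libraries only (-0.71, adjusted p = 0.0572). The LEC populations did not separate, at 0.15 (95% interval -0.094 to 0.39). Bmpr2, the type II receptor that pairs with Acvrl1, was low throughout at 9.10 ± 1.17 TPM in cardiac BECs, 7.37 ± 2.37 TPM in cardiac LECs and 6.81 ± 1.67 TPM in diaphragm LECs. Its differences were -0.31 between cardiac LECs and BECs (adjusted p = 0.182) and -0.45 between diaphragm LECs and BECs (adjusted p = 0.0462), the latter lost without any 1 of 20 of the 24 libraries (adjusted p up to 0.138).

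The coreceptors split. Eng, the endothelial coreceptor of BMP9 and TGF-beta, had lowest, median and highest levels of 470.2, 616 and 816 TPM in cardiac BECs, 251, 516 and 683 TPM in cardiac LECs and 148, 238 and 291 TPM in diaphragm LECs. Diaphragm LECs lay wholly below cardiac BECs and overlapped cardiac LECs. Their difference from cardiac LECs was -1.08 ± 0.110 (SE, adjusted p = 1.5e-08), lower in 11 of 11 mice, with -1.08 in batch 1 and -1.10 in batch 2. Between cardiac LECs and BECs the difference was -0.36 ± 0.110 (SE, adjusted p = 0.0173), lower in 11 of 12 mice, a call that was lost with ctrl libraries only, with the number of genes as a covariate (-0.23, adjusted p = 0.261) and without BEC angII+VEGFC mouse 6. Relative to the pan-endothelial gene Pecam1, the median Eng ratio was 1.04 in cardiac LECs, 0.793 in cardiac BECs and 0.514 in diaphragm LECs, so the order of cardiac LECs and BECs turned on this ratio.

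Tgfbr3, the coreceptor that captures Tgfb2, followed Tgfbr2 and not Eng. It had lowest, median and highest levels of 50.2, 105 and 132 TPM in diaphragm LECs, 47.6, 62.6 and 93.3 TPM in cardiac LECs and 17.5, 33.5 and 46.8 TPM in cardiac BECs, with no overlap between either LEC population and BECs. Cardiac LECs exceeded BECs by 1.05 ± 0.154 (SE, adjusted p = 2.15e-06) in 12 of 12 mice, and diaphragm LECs exceeded cardiac LECs by 0.64 ± 0.154 (SE, adjusted p = 0.00887) in 10 of 11 mice. The second call was lost with ctrl libraries only (0.88, adjusted p = 0.0556). The ratio of Eng to Tgfbr3 within a library had a median of 20.3 in cardiac BECs, 7.42 in cardiac LECs and 2.23 in diaphragm LECs.

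Nrros was lower in LECs than in BECs. It ranged over 22.6 to 39.5 TPM in cardiac BECs (median 31.8), over 0 to 16.5 TPM in cardiac LECs (median 7.66), where 2 ctrl libraries were listed at 0, and over 0 to 18.2 TPM in diaphragm LECs (median 8.10), where angII mouse 4 was listed at 0. Neither LEC population overlapped the BECs. The cardiac LEC difference was -2.55 ± 0.335 (SE, adjusted p = 3.19e-07), lower in 12 of 12 mice, with -2.70 in batch 1 and -2.21 in batch 2. Diaphragm and cardiac LECs differed by 0.62 (adjusted p = 0.348), which became 0.86 (adjusted p = 0.0207) without angII mouse 4 and 2.34 (adjusted p = 0.0358) with ctrl libraries only. The sum of 8 macrophage genes was 11.6 to 37.8 TPM in cardiac BECs, 28.5 to 155 TPM in cardiac LECs and 41.1 to 142 TPM in diaphragm LECs. Of the 7 tested between cardiac LECs and BECs 1 was called, Mrc1. Its median was 24.1 TPM in cardiac LECs, 44.2 TPM in diaphragm LECs and 0.707 TPM in BECs. The medians of Cd68, Ptprc, C1qa and Csf1r were also higher in cardiac LECs than in BECs. C1qb had a lower median in cardiac LECs (0.977 TPM) than in BECs (5.88 TPM), but a higher mean (10.4 against 6.79 TPM). Adgre1 and Fcgr1 had medians under 1 TPM in all 3 endothelial populations. The sum of 5 platelet genes was 37.6 to 169 TPM in cardiac BECs and 4.17 to 58.9 TPM in cardiac LECs, and the part of macrophage and platelet RNA in the difference was not tested.

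In cardiomyocyte libraries 9 of the 10 genes were called against cardiac BECs (1 higher and 8 lower), where 74.8% of all 23213 genes were called, 10.8% higher and 64.1% lower. The median of all genes was -0.61 and that of the 10 genes -0.81, so most of these differences are given relative to it. Tgfb3 was the exception. Its lowest, median and highest levels were 35.5, 73.6 and 121 TPM in cardiomyocytes, where the lowest library lay just above the highest cardiac BEC library, and the difference was 1.70 ± 0.157 (SE, adjusted p = 1.04e-09), higher in 12 of 12 mice and 2.31 relative to all genes. Tgfb3 made up 63.5% ± 4.21 of summed ligand TPM there and Tgfb1 28.0% ± 3.39. Eng (108 ± 19.1 TPM), Acvrl1 (73.2 ± 14.9 TPM), Tgfb1 (31.8 ± 10.6 TPM) and Bmpr2 lay wholly below BECs, with differences of -1.97, -1.26, -1.0 and -1.06 relative to all genes. Tgfbr2 (62.7 ± 18.4 TPM), Tgfbr3 (18.2 ± 5.62 TPM), Tgfbr1 (12.5 ± 5.59 TPM) and Nrros (12.2 to 32.8 TPM) lay -0.23, -0.18, -0.0085 and 0.034 from that median, and with quantile normalization Tgfbr1, Tgfbr3 and Nrros turned direction and the Tgfbr2 call was lost. Tgfb2 (9.61 ± 3.48 TPM) did not pass (0.18, adjusted p = 0.354) and lay 0.79 from that median. With quantile normalization 6 of the 10 genes were called, against 50.3% of all genes, and Tgfb2 was among them as higher. The direction of Tgfb2 turned with ctrl libraries only. Cardiomyocytes were the only population of batch 3, so population and batch cannot be told apart here. The sum of 5 pan-endothelial genes was 459 to 809 TPM in cardiomyocyte libraries against 2982 to 5086 TPM in BECs, and the median Eng to Pecam1 ratio was 0.767 against 0.793. The part of endothelial, fibroblast and macrophage RNA in these levels was not tested.

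The next comparisons asked whether angiotensin II changed these genes, and whether VEGFCc156s on top of it did. None of the 10 genes passed an adjusted p-value of 0.05 in any of the 12 treatment comparisons by limma. Few genes of any kind did. In cardiac LECs 0.0261% of 26803 genes were called in angII against ctrl, and 0% in the other comparisons. In cardiomyocytes the shares were 0.0892% of 15691 genes in angII against ctrl, 0% in angII+VEGFC against angII and 0.663% in angII+VEGFC against ctrl. In diaphragm LECs (23839 genes) and cardiac BECs (21281 genes) the share was 0% throughout. The median of all genes itself moved in angII against ctrl, angII+VEGFC against angII and angII+VEGFC against ctrl, by 0.23, -0.37 and -0.13 in cardiac LECs, 0.28, -0.21 and 0.048 in diaphragm LECs, -0.057, 0.028 and -0.011 in cardiac BECs and 0.12, -0.032 and 0.11 in cardiomyocytes. Values with an unadjusted p-value under 0.05 are given below as descriptions. Genes whose groups did not overlap are also named, whatever their p-value. How many of all genes showed no overlap was not counted, so a lack of overlap does not set a gene apart. The 3 comparisons of a population share mice and are not independent.

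**Figure D3:**
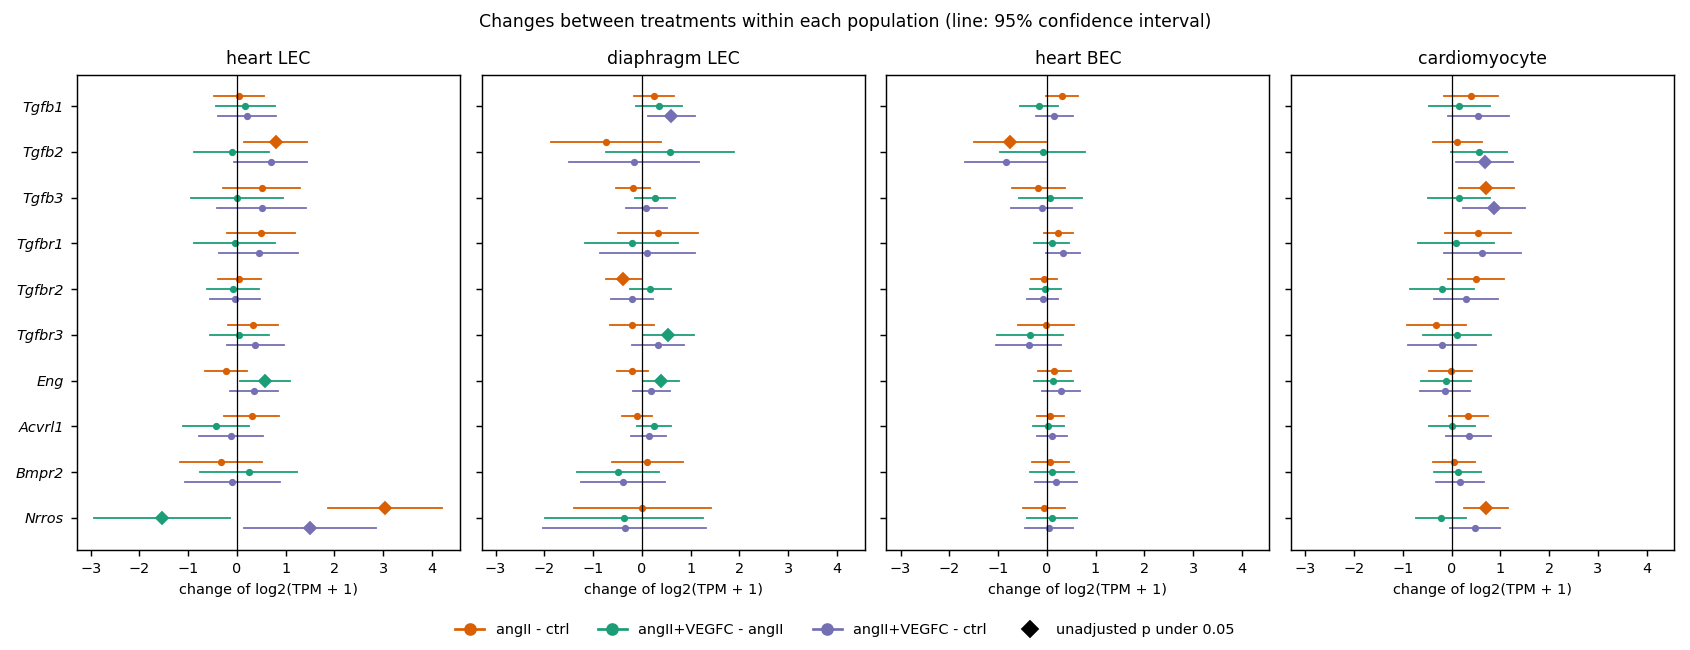
Change of log2(TPM + 1) between treatment groups on the x axis for each gene on the y axis, by population; points are limma estimates, lines are 95% confidence intervals, colors are the comparisons and diamonds mark an unadjusted p-value under 0.05. The point furthest from 0 is Nrros in cardiac LECs at 3.04 in angII minus ctrl, and most other intervals cross 0.

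Nrros in cardiac LECs had the smallest p-value of any of the 10 genes in a treatment comparison. Its levels were 0, 5.73, 0 and 0.774 TPM in ctrl mice 1, 5, 9 and 11, 16.5, 10.8, 15.3, 8.79 and 11.7 TPM in angII mice 3, 12, 14, 15 and 18, and 10.3, 2.21 and 6.53 TPM in angII+VEGFC mice 2, 6 and 8. All angII libraries lay above all ctrl libraries, and the angII+VEGFC libraries overlapped both. The difference between angII and ctrl was 3.04 ± 0.555 (SE, adjusted p = 0.0884), with a 95% interval of 1.86 to 4.21, against a median of 0.23 over all genes. Within batches it was 3.91 in batch 1 and 1.69 in batch 2. The difference was -1.53 ± 0.660 (SE, adjusted p = 0.442) between angII+VEGFC and angII and 1.5 ± 0.642 (SE, adjusted p = 0.915) between angII+VEGFC and ctrl. Under the other settings the angII difference ran from 2.71 to 5.10, with adjusted p-values from 0.0586 to 0.309.

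The macrophage sum in these cardiac LEC libraries was 43.5 to 70.4 TPM in ctrl, 28.5 to 99.96 TPM in angII and 30.6 to 155 TPM in angII+VEGFC, and these ranges overlapped. Its median over these libraries was 47.8 TPM, and the median of Mrc1 alone was 24.1 TPM. Mrc1 was the gene of this sum called higher in cardiac LECs than in BECs. The sum therefore holds much Mrc1, and whether that Mrc1 came from macrophages was not tested. The sum of 5 cardiomyocyte genes was 100.1 to 196 TPM in ctrl (median 147), 123 to 719.9 TPM in angII (median 441) and 112 to 228 TPM in angII+VEGFC (median 176), with overlapping ranges and the highest median in angII, as for Nrros. The sum of 6 mural cell genes was 43.0 to 166, 90.9 to 315 and 56.5 to 95.8 TPM in the same order, and none of the 6 was called in angII against ctrl (median difference 1.38). The sum of 7 fibroblast genes was 858 to 1395, 697 to 1591 and 938 to 1280.3 TPM, and 1 of the 7, Col1a2, was called higher in angII than in ctrl (adjusted p = 0.0293, median difference of the 7 genes 0.75). The part of these cells in the Nrros difference was not tested. Genes reaching 1 TPM numbered 16131 to 24086 in ctrl, 19957 to 25896 in angII and 16756 to 18884 in angII+VEGFC. This number moved with the groups. The ctrl libraries with the most genes (mouse 1, 24086) and with the fewest (mouse 9, 16131) were both listed at 0 for Nrros. With the number of genes as a covariate the Nrros difference was 3.60 (adjusted p = 0.23).

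**Figure D4:**
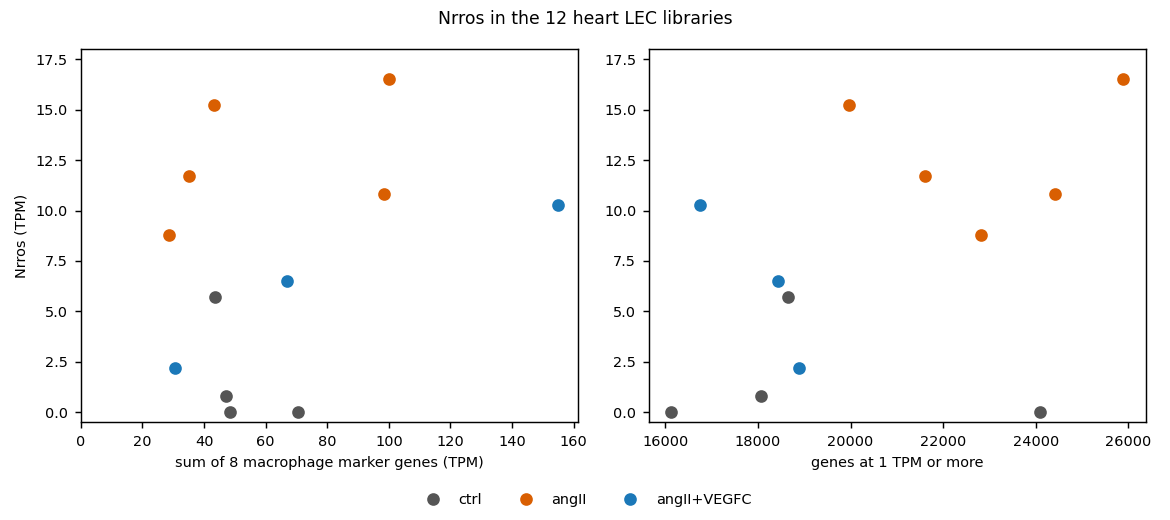
Nrros level in TPM (y axis) in the 12 cardiac LEC libraries against the sum of 8 macrophage marker genes in TPM (left) and the count of genes reaching 1 TPM (right); points are libraries and colors are treatment groups. The 5 angII libraries lie between 8.79 and 16.5 TPM, above the ctrl libraries at 0 to 5.73 TPM, at macrophage sums that overlap. Mrc1, a gene of this sum, had a median of 24.1 TPM in these libraries, where the median sum was 47.8 TPM.

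In cardiac LECs the share of all genes with an unadjusted p-value under 0.05 was 10.9% in angII against ctrl, 10.8% in angII+VEGFC against angII and 4.94% in angII+VEGFC against ctrl, and the numbers among the 10 genes were 2, 2 and 1. Tgfb2 levels were 16.7, 16.2, 8.06 and 20.8 TPM in ctrl, 36.9, 18.0, 29.1, 20.9 and 20.5 TPM in angII and 23.4, 30.2 and 27.8 TPM in angII+VEGFC. The angII+VEGFC libraries did not overlap ctrl, and the angII libraries did. The angII difference was 0.79 ± 0.306 (SE, adjusted p = 0.373). Eng levels were 326, 490.1, 483 and 683 TPM in ctrl, 251, 407, 594, 433 and 542 TPM in angII and 573, 614 and 546 TPM in angII+VEGFC, which overlapped, and the difference between angII+VEGFC and angII was 0.57 ± 0.241 (SE, adjusted p = 0.437). The median of all genes moved by -0.37 in that comparison, and with the number of genes as a covariate the Eng difference was -0.037. Over all 10 genes the differences ran over -0.33 to 3.04 in angII against ctrl, -1.53 to 0.57 in angII+VEGFC against angII and -0.12 to 1.5 in angII+VEGFC against ctrl.

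In diaphragm LECs, from outside the heart, 1, 2 and 1 of the 10 genes had an unadjusted p-value under 0.05, against 15.3%, 8.78% and 1.32% of all genes in the same order of comparisons. Tgfbr2 was 669, 601, 580.5 and 712 TPM in ctrl and 501, 379, 593, 420.1 and 582 TPM in angII, with overlap, and the difference was -0.38 ± 0.170 (SE, adjusted p = 0.318). Tgfbr3 was 74.0, 50.2, 116, 98.3 and 115 TPM in angII and 108, 128 and 132 TPM in angII+VEGFC, with overlap, a difference of 0.54 ± 0.242 (SE, adjusted p = 0.567). Eng in the same groups was 195, 148, 211, 196 and 257 TPM and 269, 229.9 and 291 TPM, with a difference of 0.38 ± 0.172 (SE, adjusted p = 0.567). Tgfb1 was 119, 155, 115 and 157 TPM in ctrl and 271, 204 and 151 TPM in angII+VEGFC, with a difference of 0.60 ± 0.226 (SE, adjusted p = 1). These groups also overlapped. Acvrl1 in angII+VEGFC (168, 180.5 and 178 TPM) did not overlap angII (116, 139.9, 144, 159 and 159 TPM), with a difference of 0.24 (adjusted p = 0.634). Nrros, for comparison with cardiac LECs, was 7.46, 6.25, 8.73 and 12.1 TPM in ctrl, 17.5, 0, 10.5, 13.8 and 18.2 TPM in angII mice 3, 4, 14, 15 and 18, and 4.89, 5.96 and 6.29 TPM in angII+VEGFC.

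Cardiac BECs had 1 of the 10 genes at an unadjusted p-value under 0.05 in angII against ctrl and none in the other comparisons, with 5.4%, 2.59% and 5.51% of all genes. Tgfb2 was 16.8, 9.14, 14.4 and 10.6 TPM in ctrl, 7.18, 8.67, 10.6, 3.32 and 8.23 TPM in angII and 5.45, 3.70 and 11.0 TPM in angII+VEGFC, and the groups overlapped. It was -0.75 ± 0.337 (SE, adjusted p = 0.914) in angII against ctrl, the opposite sign to cardiac LECs, and -0.84 ± 0.389 (SE, adjusted p = 0.902) in angII+VEGFC against ctrl. In angII+VEGFC against angII the smallest p-value was that of Tgfbr3, at -0.35 ± 0.313 (SE, adjusted p = 1), from 36.4, 39.2, 39.8, 21.1 and 29.97 TPM in angII and 36.4, 17.5 and 30.6 TPM in angII+VEGFC. Its direction turned without angII+VEGFC mouse 6 (0.097). Tgfbr1 in angII+VEGFC (23.1, 20.6 and 19.8 TPM) did not overlap ctrl (17.7, 16.9, 13.6 and 15.9 TPM), a difference of 0.33 (adjusted p = 0.908).

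In cardiomyocyte libraries 2, 0 and 2 of the 10 genes had an unadjusted p-value under 0.05, against 9.85%, 2.41% and 12.9% of all genes. Tgfb3 was 61.1, 45.1, 35.5 and 54.7 TPM in ctrl, 76.7, 78.7, 79.0, 70.5 and 105 TPM in angII and 121, 110 and 46.7 TPM in angII+VEGFC mice 2, 6 and 8. All angII libraries lay above all ctrl libraries, and mouse 8 of the angII+VEGFC group fell among ctrl. The difference from ctrl was 0.71 ± 0.260 (SE, adjusted p = 0.355) in angII and 0.86 ± 0.298 (SE, adjusted p = 0.22) in angII+VEGFC. Nrros was 17.8, 13.9, 12.2 and 17.6 TPM in ctrl, 32.8, 21.0, 24.8, 19.9 and 26.3 TPM in angII and 20.7, 31.6 and 17.3 TPM in angII+VEGFC, without overlap between ctrl and angII and with a difference of 0.70 ± 0.208 (SE, adjusted p = 0.21).

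Tgfb2 in cardiomyocyte libraries was 10.4, 6.12, 7.34 and 7.65 TPM in ctrl, 8.69, 6.61, 9.19, 8.26 and 11.4 TPM in angII and 18.6, 13.3 and 7.81 TPM in angII+VEGFC, with overlap. Its difference was 0.56 ± 0.274 (SE, adjusted p = 1) in angII+VEGFC against angII, the smallest p-value of that comparison, and 0.68 ± 0.273 (SE, adjusted p = 0.305) in angII+VEGFC against ctrl. Without angII+VEGFC mouse 8, the library with the most genes, the comparison of angII+VEGFC with ctrl called all 3 ligands, Tgfb1 (0.91, adjusted p = 0.0412), Tgfb2 (0.94, adjusted p = 0.0466) and Tgfb3 (1.25, adjusted p = 0.0077). In that fit, which leaves 2 libraries in the group, 5.71% of 14910 genes were called. The macrophage sum of these libraries was 299 to 372 TPM in ctrl, 478 to 836 TPM in angII and 482 to 1100.3 TPM in angII+VEGFC, and the fibroblast sum was 2241 to 3211, 3191 to 4687 and 3186 to 4878 TPM. Both sums had higher medians in angII and in angII+VEGFC than in ctrl, as had Tgfb3 and Nrros. The macrophage sums of angII and of angII+VEGFC lay wholly above ctrl. The fibroblast sums of both groups overlapped ctrl narrowly, from 3191 and 3186 TPM against up to 3211 TPM in ctrl. Tgfb3 and Nrros did not overlap between ctrl and angII, and overlapped between ctrl and angII+VEGFC. The part of these cells in these values was not tested.

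Whether the treatment effect differed between endothelial populations was tested directly with an interaction in limma. None of the 10 genes passed in any of 6 such tests. The share of 32754 genes called was 0.00611% for the angII effect in diaphragm against cardiac LECs and 0% in the other 5. The Nrros effect of angII exceeded that of cardiac BECs by 2.87 ± 0.761 (SE, adjusted p = 0.4) in cardiac LECs, and differed by -2.87 ± 0.764 (SE, adjusted p = 0.225) between diaphragm and cardiac LECs. Without cardiac LEC ctrl mouse 5 the latter became -3.46 (adjusted p = 0.0401). The Tgfb2 effect of angII differed by 1.4 ± 0.635 (SE, adjusted p = 0.676) between cardiac LECs and BECs and by -1.46 ± 0.637 (SE, adjusted p = 0.461) between diaphragm and cardiac LECs. The Acvrl1 effect of angII+VEGFC against angII differed by 0.71 ± 0.292 (SE, adjusted p = 0.981) between diaphragm and cardiac LECs. At an unadjusted p-value under 0.05 the angII interactions held 2 (cardiac LEC against BEC, 7.19% of all genes), 2 (diaphragm against cardiac LEC, 9.7%) and 0 (diaphragm LEC against BEC, 11%) of the 10 genes. The angII+VEGFC interactions held 0 (6.43%), 1 (4.88%) and 0 (7%) in the same order.

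Other genes of the TGF-beta and BMP pathways, from 7 lists, were read in the same fits, and their values are differences of log2(TPM + 1) ± SE. Between cardiac LECs and cardiac BECs 21 of 52 tested were called (14 higher and 7 lower), against 17.6% of all genes, and the median difference was -0.0022. Genes that store and activate latent TGF-beta had 6 of 11 higher and 0 lower (median difference 0.60). Ltbp1, which binds the latent complex to matrix, had a median of 173 TPM in cardiac LECs and 32.2 TPM in BECs and differed by 2.41 ± 0.189 (adjusted p = 3.76e-12), and Thbs1, a matrix protein that activates the latent form, differed by 1.24 ± 0.330 (adjusted p = 0.00639). Genes commonly induced by TGF-beta had 3 of 7 higher and 1 lower (median difference 0.33). Postn (periostin) had a median of 695 against 38.9 TPM and Tgfbi of 191 against 22.2 TPM, with differences of 3.80 ± 0.235 and 3.15 ± 0.233. Postn is also made by fibroblasts, and the sum of 7 fibroblast genes was 697 to 1591 TPM in cardiac LECs, 428 to 3837 TPM in cardiac BECs and 126 to 1026 TPM in diaphragm LECs. Of these 7 genes 1 was higher and 5 were lower in cardiac LECs than in BECs, and 0 were higher and 3 lower in diaphragm than in cardiac LECs, and their part in these differences was not tested. Receptor-regulated and common SMAD genes had 2 of 5 higher and 0 lower (median difference 0.058), with Smad1 at 0.91 ± 0.0960 and Smad2 at 0.72 ± 0.140.

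The remaining lists moved less evenly between cardiac LECs and BECs. Other type I and type II receptors had 1 of 7 higher and 2 lower (median difference 0.0037), the 2 lower being the activin receptors Acvr2b (-1.5 ± 0.284) and Acvr2a (-1.05 ± 0.166). BMP and activin ligands had 0 of 6 higher and 1 lower (median difference -0.29), the lower being Bmp2 (-0.85 ± 0.251). Inhibitors had 1 of 9 higher and 1 lower (median difference -0.036), with the inhibitory SMAD gene Smad7 at -1.17 ± 0.211 and the corepressor gene Tgif1 at 0.70 ± 0.140. Targets of ALK1 signaling had 1 of 7 higher and 2 lower (median difference -0.19). Id1, the best known of them, had a median of 1582 TPM in cardiac LECs and 2869 TPM in BECs (-0.87 ± 0.114, adjusted p = 2.68e-07), and Tmem100 differed by 0.71 ± 0.172.

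Diaphragm LECs differed from cardiac LECs mostly downward in these lists, with 19 of 52 called (5 higher and 14 lower, against 4.56% of all genes) and a median of -0.14. ALK1 targets had 0 of 7 higher and 5 lower (median difference -1.14), with Id1 at -1.20 ± 0.114 (median 723 TPM in diaphragm LECs) and Atoh8 at -1.66 ± 0.297. Inhibitors had 1 of 9 higher and 2 lower (median difference 0.0048). Smad6, an inhibitory SMAD gene induced by BMP signals, had a median of 4.87 TPM in diaphragm LECs against 67.7 TPM in cardiac LECs and differed by -3.95 ± 0.257 (adjusted p = 7.95e-13), and Smad7 differed by -2.27 ± 0.212 (adjusted p = 2.36e-09). TGF-beta targets had 1 of 7 higher and 3 lower (median difference -0.66), with Postn at -3.61 ± 0.235 and Fn1 (fibronectin) at -1.98 ± 0.152. Latency genes had 2 of 11 higher and 1 lower (median difference -0.016), with Ltbp1 at -1.96 ± 0.189 and Lrrc32, a cell-surface anchor of latent TGF-beta related to Nrros, at 0.58 ± 0.148. Other receptors had 0 of 7 higher and 2 lower (median difference -0.014), with Bmpr1a at -1.26 ± 0.289 and Acvr1 at -1.15 ± 0.170. BMP and activin ligands had 0 of 6 higher and 1 lower (median difference -0.70), with Bmp6 at -1.90 ± 0.312, and SMADs had 1 of 5 higher and 0 lower (median difference 0.42), with Smad5 at 0.42 ± 0.125.

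**Figure D5:**
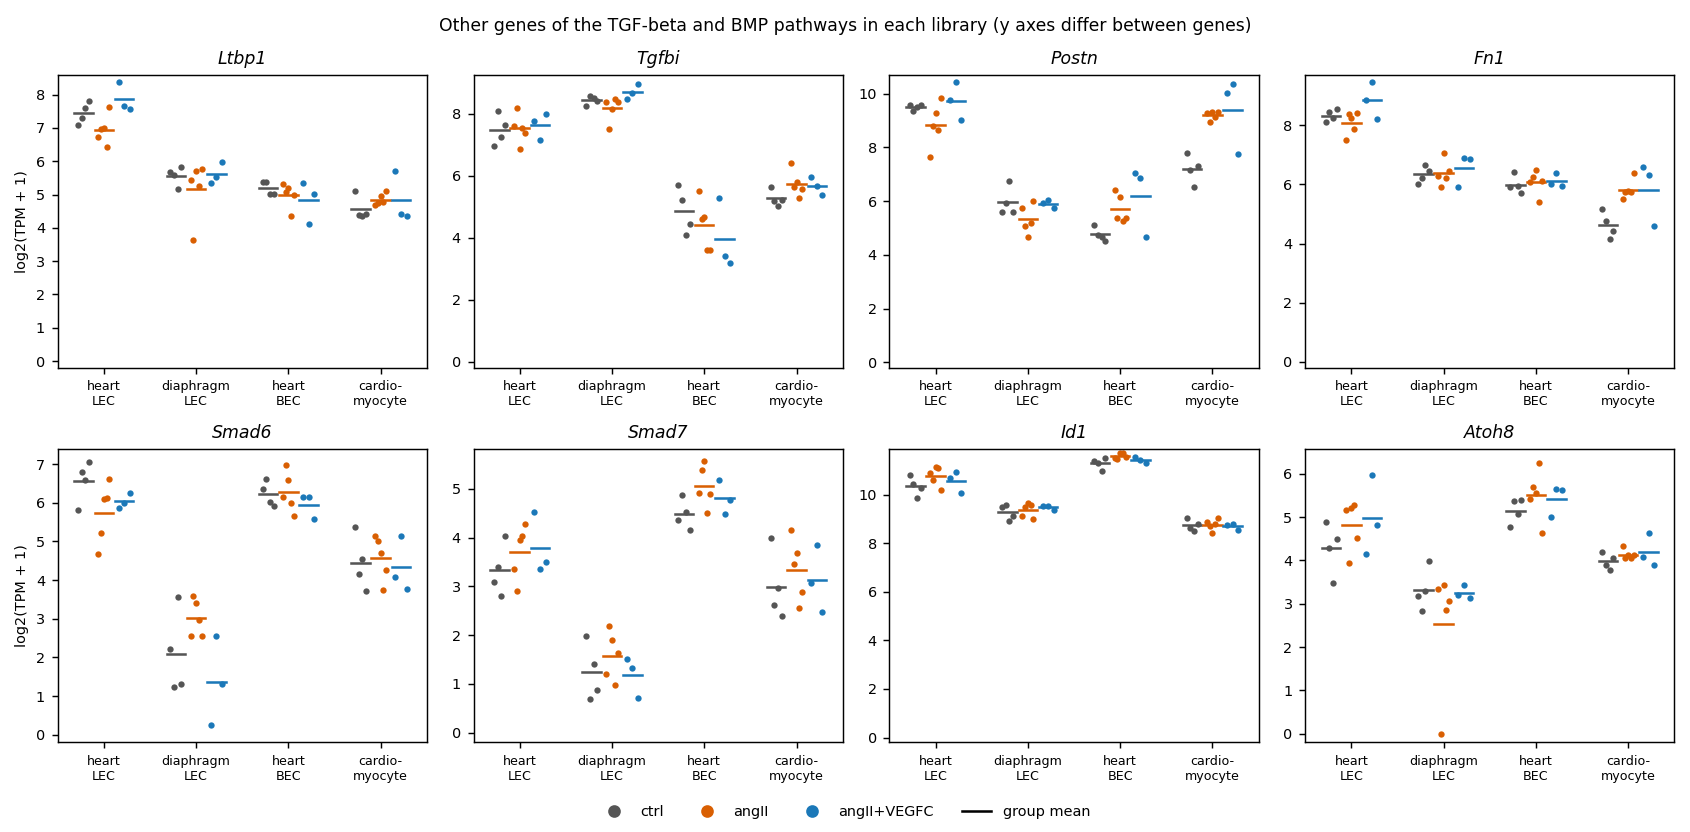
Level of 8 pathway genes in each library as log2(TPM + 1) (y axis) by cell population (x axis); points are libraries, colors are treatment groups and lines are group means. Ltbp1, Postn and Fn1 are highest among endothelial cells in cardiac LECs, and Smad6, Smad7 and Id1 are lowest among endothelial cells in diaphragm LECs.

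Against cardiac BECs, diaphragm LECs had 26 of 52 pathway genes called (11 higher and 15 lower, against 16.6% of all genes, median -0.19). Latency genes had 5 of 11 higher and 1 lower (median difference 0.45), with Ltbp3 at 1.36 ± 0.184 and Itgav, the integrin subunit that activates latent TGF-beta, at 1.30 ± 0.160. SMADs had 3 of 5 higher and 0 lower (median difference 0.48), with Smad2 at 1.14 ± 0.140 and Smad1 at 1.09 ± 0.0962. Inhibitors had 1 of 9 higher and 2 lower (median difference -0.19), with Smad6 at -3.98 ± 0.257 and Smad7 at -3.44 ± 0.212. ALK1 targets had 1 of 7 higher and 4 lower (median difference -1.02), with Atoh8 at -2.32 ± 0.297 and Id1 at -2.07 ± 0.114. TGF-beta targets had 1 of 7 higher and 1 lower (median difference 0.19), with Tgfbi at 4.03 ± 0.234 and Tagln at -2.14 ± 0.598. Other receptors had 0 of 7 higher and 4 lower (median difference -0.68) (Acvr2b -1.44 ± 0.285, Acvr2a -1.07 ± 0.166), and BMP and activin ligands had 0 of 6 higher and 3 lower (median difference -0.94) (Bmp6 -2.38 ± 0.312, Inhba -1.75 ± 0.358).

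Cardiomyocyte libraries had 42 of 52 pathway genes called against cardiac BECs (14 higher and 28 lower, against 74.8% of all genes, with a median of -0.62 against -0.61 over all genes). TGF-beta targets had 5 of 7 higher and 1 lower (median difference 2.30), with Postn at 3.03 ± 0.275 and the fibroblast marker Col1a1 at 3.02 ± 0.375. Latency genes had 4 of 11 higher and 3 lower (median difference -0.29), with Ltbp2 at 3.58 ± 0.327 and Lrrc32 at -1.79 ± 0.160. BMP and activin ligands had 1 of 7 higher and 3 lower (median difference -0.16), with the atrial BMP gene Bmp10 at 3.91 ± 0.650 and Bmp6 at -1.87 ± 0.302. SMADs had 0 of 5 higher and 4 lower (median difference -1.05) (Smad1 -1.83 ± 0.0759, Smad5 -1.77 ± 0.117) and inhibitors had 1 of 9 higher and 8 lower (median difference -1.17) (Smad6 -1.70 ± 0.201, Smad7 -1.63 ± 0.205). ALK1 targets had 1 of 7 higher and 5 lower (median difference -1.25) (Id1 -2.70 ± 0.0885, Hey1 -2.10 ± 0.0982), and other receptors had 2 of 6 higher and 4 lower (median difference -0.86) (Acvr2a -1.88 ± 0.103, Acvr2b -1.65 ± 0.228).

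Between treatments 1 pathway gene was called, Inhba, which encodes the activin A subunit, in cardiomyocyte libraries. This was 1 of 50 pathway genes tested in angII+VEGFC against ctrl, where 0.663% of all 15691 genes were called. Inhba had no call in the other comparisons between treatments. It was 7.84, 6.26, 3.73 and 2.23 TPM in ctrl, 8.75, 8.93, 6.83, 23.6 and 16.9 TPM in angII and 54.4, 22.8 and 19.0 TPM in angII+VEGFC, and rose by 2.43 ± 0.460 (SE, adjusted p = 0.0321) from ctrl to angII+VEGFC. The call was lost without any 1 of 7 of the 12 libraries, a check chosen after its values were seen, namely ctrl mouse 1, 5, 9 or 11, angII mouse 3 and angII+VEGFC mouse 2 or 6. The difference then ran from 1.75 to 2.73 over all 12 fits, with adjusted p-values from 0.00819 to 0.244, and the lowest was that without angII+VEGFC mouse 2. Without angII+VEGFC mouse 8 it was 2.69 (adjusted p = 0.00819). The macrophage and fibroblast sums that moved with these groups are given above, and their part in the Inhba difference was not tested. In angII+VEGFC against angII it was 1.26 ± 0.461 (adjusted p = 1), and in angII against ctrl the smallest p-value was that of Pmepa1, an inhibitor induced by TGF-beta, at 1.08 ± 0.211 (adjusted p = 0.0749). In cardiac LECs the smallest p-values belonged to Col1a1 in angII against ctrl (2.15 ± 0.441, adjusted p = 0.114), Ltbp1 in angII+VEGFC against angII (1.13 ± 0.247, adjusted p = 0.413) and Ccn2 in angII+VEGFC against ctrl (0.73 ± 0.236, adjusted p = 0.915). In diaphragm LECs they belonged to Inhba in angII against ctrl (2.49 ± 0.685, adjusted p = 0.297) and Id3 in angII+VEGFC against ctrl (0.23 ± 0.149, adjusted p = 1). In cardiac BECs they belonged to Ltbp2 in angII against ctrl (1.57 ± 0.380), Ccn2 in angII+VEGFC against angII (0.75 ± 0.422) and Ltbp2 in angII+VEGFC against ctrl (1.96 ± 0.440), with adjusted p-values of 0.671, 1 and 0.594.

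The genes with the most similar pattern were ranked by Pearson r of log2(TPM + 1) over the 48 libraries, a description that mostly reads the differences between the 4 populations. For Tgfbr2 they were Epb41l2 (0.980), Flt4 (0.976) and Ppfibp1 (0.976), of which Flt4 encodes VEGFR3, and for Tgfbr3 Epb41l2 (0.950), Ntn1 (0.948) and Dlg1 (0.942). For Eng they were Nos3 (0.963), Gata2 (0.960) and Emcn (0.959), of which Nos3 encodes endothelial nitric oxide synthase, and for Acvrl1 Slc9a3r2 (0.971), Sorbs3 (0.956) and Hspa12b (0.954). For Bmpr2 they were Tmpo (0.922), Tanc1 (0.922) and Vgll4 (0.919), for Tgfbr1 Phldb1 (0.764), Nuak2 (0.757) and Fam129b (0.756) and for Nrros Map6 (0.867), Hlx (0.811) and Rhpn2 (0.795). For the ligands they were Actr2 (0.937), Gak (0.936) and Eif3b (0.933) with Tgfb1, Arhgap6 (0.875), Mboat1 (0.857) and March3 (0.843) with Tgfb2 and Fhl1 (0.908), Loxl2 (0.883) and Sgcd (0.876) with Tgfb3. Epb41l2 led the lists of both Tgfbr2 and Tgfbr3.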

How the data were processed

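RNA from sorted endothelial cells and pelleted cardiomyocytes was made into libraries with the Smart-Seq ultra low input and Nextera XT kits. Per the submitters' processing notes, reads were aligned to GRCm38 with STAR 2.5.3a and quantified with Salmon 0.12.0 against Ensembl genes, and the authors deposited 1 matrix in TPM. The files hold no counts, so count tests and sampling intervals were not used. Group, mouse, age and batch came from the labels. The 10 genes, the lists and the tests were chosen with earlier results of these data known.

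Values were transformed to log2(TPM + 1). Genes that reached 1 TPM in 3 or more libraries of a fit were tested with limma 3.58.1 in R 4.3.3 (trend), with age and, for endothelial cells, batch as covariates, and Benjamini-Hochberg adjusted p-values at 0.05. Treatments were compared within populations, and populations over the 3 groups weighted equally. A mouse number marks the same animal in different populations, so it pairs libraries between populations (12 mice, or 11 with diaphragm LECs), and groups hold different mice. Deviations from group means correlated at a mean r of 0.0386 for the same mouse (69 pairs). No libraries were identical. Members with an unadjusted p-value under 0.05, or else the smallest p-value, are given in full for treatments, and the 2 largest called differences of each pathway list for populations. The pathway lists cover latency and activation, other receptors, BMP and activin ligands, SMADs, inhibitors, TGF-beta targets and ALK1 targets. Alternatives were a pseudocount of 0.1 TPM, no filter, no covariates, 1 surrogate variable, the number of genes as a covariate, quantile normalization, fits of 2 groups, ctrl libraries only, the mouse as a block, and each library left out. A pathway result that falls under withheld items is not reported here. The code was tested on simulated data. Figures were drawn with matplotlib 3.10.9 in Python 3.11.15.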

Additional observations from a re-analysis of the deposited data

Results flagged for a closer look

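Each of the 10 genes was looked at for a library that lay far from the others of its group in the 80 groups of 4 or 5 libraries, where chance alone marks about 1 in 20 groups. In these data 8 were found. Diaphragm LEC angII mouse 4 accounted for 3 of them, with Tgfb2 at 3.58 TPM against 34.3 to 51.8 TPM in the other 4 libraries, Tgfbr1 at 26.0 TPM against 6.60 to 9.78 TPM, and Nrros listed at 0 against 10.5 to 18.2 TPM. Cardiac LEC ctrl mouse 1 accounted for 2, with Tgfb1 at 38.6 TPM against 89.6 to 106 TPM and Tgfb3 at 14.8 TPM against 59.7 to 64.6 TPM. The others were Tgfb1 in diaphragm LEC angII mouse 3 at 112 TPM against 165 to 183 TPM, Tgfb3 in cardiomyocyte angII mouse 18 at 105 TPM against 70.5 to 79.0 TPM, and Eng in diaphragm LEC ctrl mouse 1 at 186 TPM against 247 to 251 TPM. The sum of lymphatic markers in diaphragm LEC angII mouse 4 lay within the range of the other diaphragm LEC libraries.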

How the results depend on the processing

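The count of called genes among the 10 stayed within 1.5 times in 126 of 130 comparisons with another setting and in 291 of 294 with a library left out. In every treatment and interaction comparison the count started at 0, and a count that stayed at 0 is included here. It moved in cardiomyocytes from 0 to 1 in angII against ctrl with 1 surrogate variable (Nrros, with 1.74% of all genes called) and to 2 with the number of genes as a covariate (Nrros and Tgfb3, 3.01%), to 2 in angII+VEGFC against ctrl with that covariate (Tgfb1 and Tgfb3, 4.9%), and from 8 to 4 between cardiac LECs and BECs with ctrl libraries only (Acvrl1, Nrros, Tgfbr2 and Tgfbr3, 9.82%). With a library left out the count ran from 4 to 8 between diaphragm and cardiac LECs (8 without diaphragm angII mouse 4), from 0 to 3 in cardiomyocyte angII+VEGFC against ctrl (3 without angII+VEGFC mouse 8), and from 0 to 1 in the angII interaction of diaphragm and cardiac LECs (1 without cardiac LEC ctrl mouse 5). Directions turned between cardiomyocytes and BECs for Nrros (0.24), Tgfbr1 (0.14) and Tgfbr3 (0.031) with quantile normalization, where the median of all genes was -0.14, and for Tgfb2 with ctrl libraries only (-0.61) and the number of genes as a covariate (-0.13). They also turned for Bmpr2 between diaphragm and cardiac LECs with quantile normalization (0.088), for Eng in cardiac LEC angII+VEGFC against angII with the number of genes as a covariate (-0.037), and for Tgfbr3 in cardiac BEC angII+VEGFC against angII with a library left out, angII+VEGFC mouse 6 (-0.79 to 0.097). The count between cardiomyocytes and BECs fell from 9 to 6 with quantile normalization, which lies at the limit of 1.5 times and is not listed as moved. These 6 were Acvrl1, Bmpr2, Eng, Tgfb1, Tgfb2 and Tgfb3, with 50.3% of all genes called. The cause of these changes was not tested. A replicate block for the mouse gave counts of 8 between cardiac LECs and BECs, 6 between diaphragm and cardiac LECs, 10 between diaphragm LECs and BECs, 9 between cardiomyocytes and BECs and 0 in the interactions, and the block fit changed no call but that of Tgfb2 between diaphragm and cardiac LECs. That call also changed without diaphragm angII mouse 4, a library the block fit leaves out. Of single values, 380 of 414 under another setting and 1141 of 1185 with a library left out kept their direction and side of the threshold. The unknown depth sets a limit for genes near 0 TPM, such as Nrros in LECs.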
